A study of Mus musculus with 4 samples.

Results

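The cells described here were inflamed endothelial cells of the mouse retina. They were barcodes with endothelial RNA that also carried unique molecular identifiers (UMIs, one for each captured RNA molecule) of Lcn2, Lrg1, Ackr1 and Serpina3n. A barcode was taken as endothelial when Cldn5, Cdh5, Pecam1 and Flt1 had at least 4 UMIs over at least 2 genes, with at most 1 UMI of the pericyte genes Pdgfrb, Kcnj8 and Abcc9 together and at most 2 UMIs of the Müller glia gene Rlbp1. It was taken as inflamed when Lcn2, Lrg1, Ackr1 and Serpina3n had at least 4 UMIs over at least 2 of these genes. Of 19716 barcodes that passed quality filters, 3388 were endothelial and 149 of those were inflamed. The Diabetic libraries held 147 of the 149 and the Control libraries 2.

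The study asked about retinal endothelial cells and the blood-retina barrier in diabetic retinopathy. Retinal cells were enriched with beads against CD31, a surface protein of endothelium, and sequenced by 10x Genomics 3′ single-cell RNA-seq in 2 Diabetic and 2 Control libraries, the second labelled Ctrl. The strain, sex, age, genotype, diabetes model and its duration are not given in the sources used here. The labels do not say whether the libraries came from separate mice, so the spread behind the p-values may be technical. Against Control, p-values measure the spread between libraries. Where inflamed cells are set against other cells of the same libraries, they measure how far that difference varied between libraries. In each case the spread was pooled over genes.

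Post-capillary venules and veins are where circulating leukocytes leave the blood. When endothelium there meets inflammatory cytokines, NF-kB and STAT3 signalling can induce selectins and integrin ligands that slow and hold leukocytes, together with chemokine-handling and acute-phase proteins. Lcn2 is a secreted protein that binds iron-siderophore complexes, Lrg1 a secreted glycoprotein that modifies TGF-beta signalling in vessels, Ackr1 an atypical receptor of venular endothelium that takes up chemokines, and Serpina3n a secreted protease inhibitor of the acute phase. In the retina, endothelium also forms the inner blood-retina barrier, with tight junctions, little transcytosis and many nutrient transporters.

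The promoters of the 4 rule genes are shown because their RNAs defined the cells, and those of Ptgs2 and Sele because these were the first 2 of the 12 highest genes described below. Each sequence is from RefSeq on GRCm38.p6 and runs 5′ to 3′ on the gene's strand, from 250 bases before the start to 50 after it. The windows lie at chr2:32387690-32387989 (minus strand), chr17:56121897-56122196 (minus), chr1:173333454-173333753 (minus), chr12:104406458-104406757 (plus), chr1:150099781-150100080 (plus) and chr1:164047984-164048283 (plus). Capitals mark a match on either strand to an NF-kB motif (GGG, any 2 letters, TTTCC), TTCNNNGAA (STAT) or TTGCGCAA (C/EBP). No motif overlapped another.
Lcn2: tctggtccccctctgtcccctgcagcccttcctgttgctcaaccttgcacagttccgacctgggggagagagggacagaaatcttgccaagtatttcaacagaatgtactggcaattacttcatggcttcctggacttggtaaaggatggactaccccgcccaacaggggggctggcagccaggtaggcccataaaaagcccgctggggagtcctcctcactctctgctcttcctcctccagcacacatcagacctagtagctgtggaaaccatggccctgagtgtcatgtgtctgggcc
Lrg1: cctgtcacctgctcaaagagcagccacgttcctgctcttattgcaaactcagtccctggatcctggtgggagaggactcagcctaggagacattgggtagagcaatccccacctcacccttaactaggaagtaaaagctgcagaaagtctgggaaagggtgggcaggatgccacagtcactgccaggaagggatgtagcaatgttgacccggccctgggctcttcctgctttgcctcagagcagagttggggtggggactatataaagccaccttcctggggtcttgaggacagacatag
Ackr1: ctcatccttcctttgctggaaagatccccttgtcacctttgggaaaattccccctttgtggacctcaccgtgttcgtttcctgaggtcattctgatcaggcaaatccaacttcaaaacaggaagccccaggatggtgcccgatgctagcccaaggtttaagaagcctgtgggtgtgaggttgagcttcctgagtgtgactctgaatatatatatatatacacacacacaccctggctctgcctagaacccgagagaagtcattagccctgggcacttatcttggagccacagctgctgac
Serpina3n: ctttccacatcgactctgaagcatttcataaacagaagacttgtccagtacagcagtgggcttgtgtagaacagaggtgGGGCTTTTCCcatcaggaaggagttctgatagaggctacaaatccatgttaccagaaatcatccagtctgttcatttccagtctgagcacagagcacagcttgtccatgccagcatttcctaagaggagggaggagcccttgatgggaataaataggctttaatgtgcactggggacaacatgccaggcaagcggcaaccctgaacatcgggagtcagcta
Ptgs2: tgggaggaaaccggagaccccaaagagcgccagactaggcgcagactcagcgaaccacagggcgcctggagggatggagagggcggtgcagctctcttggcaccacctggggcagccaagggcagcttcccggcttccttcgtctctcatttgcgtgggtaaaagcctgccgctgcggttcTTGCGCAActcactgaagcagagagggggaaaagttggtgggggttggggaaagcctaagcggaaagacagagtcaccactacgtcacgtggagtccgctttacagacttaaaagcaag
Sele: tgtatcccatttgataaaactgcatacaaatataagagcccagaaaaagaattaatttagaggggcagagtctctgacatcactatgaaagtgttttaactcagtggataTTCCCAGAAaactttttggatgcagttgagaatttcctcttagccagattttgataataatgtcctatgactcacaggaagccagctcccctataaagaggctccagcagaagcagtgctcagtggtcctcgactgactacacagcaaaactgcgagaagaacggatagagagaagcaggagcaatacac
With position 0 as the gene's start, the NF-kB letters stood at -171 to -162 of Serpina3n, the C/EBP letters at -69 to -62 of Ptgs2 and the STAT letters at -140 to -132 of Sele. The windows of Lcn2, Lrg1 and Ackr1 held none of these letters. In the adhesion gene Icam1 the STAT letters TTCCCGGAA stood at -42 to -34. The Serpina3n paralog Serpina3g held the NF-kB letters GGGGGTTTCC at -85 to -76 and the STAT letters TTCCCAGAA at -33 to -25, the same letters as in Sele. Of 32851 promoters of this length, 1.63% held the NF-kB motif, 8.3% the STAT motif and 0.183% the C/EBP motif. A match describes letters in these windows only.

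Inflamed cells were 92 of 1703 endothelial cells in Diabetic 1 (5.40%, exact 95% binomial interval 4.38% to 6.58%) and 55 of 676 in Diabetic 2 (8.14%, 6.19% to 10.5%). They were 1 of 743 in Control 1 and 1 of 266 in Control 2. Because the rule used these genes on these libraries, the shares are a description and carry no test. Some of the barcodes held little endothelial RNA. In 8 of the 92, 7 of the 55 and both Control ones, the 4 endothelial rule genes made up under 0.05% of the UMIs. These 15 Diabetic barcodes were very deep, at 39249 to 76519 UMIs in Diabetic 1 and 62395 to 87630 in Diabetic 2. They held 40.3% and 50.7% of all UMIs of the inflamed cells. A minimum endothelial share of 0.05%, chosen after seeing the data, left 84 of 1594 cells in Diabetic 1 (5.27%, 4.22% to 6.48%) and 48 of 633 in Diabetic 2 (7.58%, 5.64% to 9.93%). It left 0 of 685 in Control 1 and 0 of 257 in Control 2, which allows shares of up to 0.438% and 1.17%. Intervals and limits cover counting error only. Counts of genes are given for all members and for these 132 kept cells, and levels are from the kept cells.

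**Figure D1:**
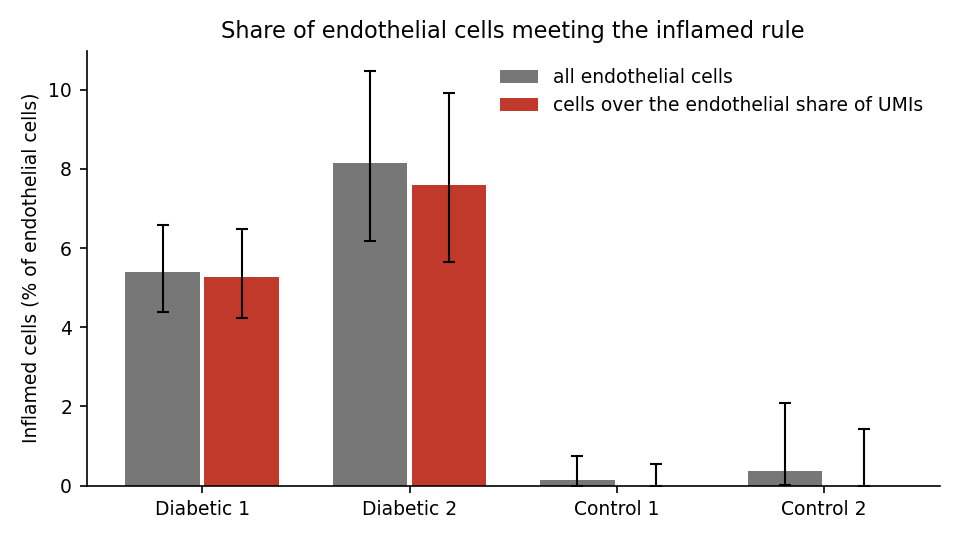
Inflamed cells as a percent of endothelial cells in each library (vertical axis), for all endothelial cells and for those above the minimum endothelial share. Error bars are exact 95% binomial intervals. Both Diabetic libraries stand between 5.27% and 8.14%, and the Control libraries at 1 cell or none.

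Depth differed between the classes. Kept inflamed cells had a median of 6871 UMIs in Diabetic 1 and 8020.5 in Diabetic 2, against 2674 and 3617 in the other endothelial cells. Their median mitochondrial share was 1.94% and 1.99%, against 3.09% and 4.11%. The 4 libraries held 3091 to 7991 barcodes and 29792902 to 58792636 UMIs. Any 2 libraries shared 5 to 9 barcode sequences, none of them a member. Scrublet called 6 of the 92 and 3 of the 55 members doublets. Because the rule asked for a number of UMIs, it favoured deep barcodes. In 1 alternative, cells were thinned to 1500 UMIs, and cells with fewer were left out. The inflamed rule was applied again to the thinned counts, and 34 cells in Diabetic 1 and 26 in Diabetic 2 met it. Members that no longer met it counted as other cells, so depth and classes changed together. Calls after thinning are given at the end of the first comparison.

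Levels are a gene's UMIs added up over all cells of one class within a library, scaled to 1000000 UMIs of the same cells and written CPM. Pairs of values give Diabetic 1 before Diabetic 2, and Control 1 before Control 2. Lcn2 stood at 1619 and 2604 CPM in kept inflamed cells, against 17.5 and 17.2 CPM in the other Diabetic endothelial cells and 1.89 and 1.86 CPM in Control. Lrg1 had 1115 and 1270 CPM, against 47.3 and 72.3 CPM in other Diabetic and 0.755 and 0.928 CPM in Control cells. Ackr1 had 453 and 813 CPM, against 8.57 and 3.13 CPM in other Diabetic and 7.18 and 1.86 CPM in Control cells. These levels follow from the rule. The same holds for Serpina3n, at 288 and 220 CPM in kept inflamed cells, 3.17 and 2.73 CPM in other Diabetic cells and 0 in Control.

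The 4 genes were spread unequally over the members. In Diabetic 1, 78 of the 84 kept cells had an Lcn2 UMI, 83 an Lrg1, 45 an Ackr1 and 37 a Serpina3n UMI. In Diabetic 2, 43 of the 48 had Lcn2, 46 Lrg1, 31 Ackr1 and 32 Serpina3n. All 4 genes were present together in 25 and 24 cells. A few cells held much of the RNA, since the 5 cells with most Lcn2 carried 38.4% and 53.8% of the Lcn2 UMIs. At the edge of the rule, 11 and 2 kept cells had exactly 4 UMIs of the 4 genes. Just outside it, 20 and 16 cells had 3 UMIs, and 18 and 16 had 4 or more UMIs but of 1 gene.

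The label calls the cells venular, and this was checked against venous markers. The summed level of 8 venous markers (Vwf, Nr2f2, Slc38a5, Ephb4, Ctsc, Il1r1, Tmem252 and Aplnr) was 2953 and 3373 CPM in kept inflamed cells, against 673 and 762 CPM in other Diabetic endothelial cells. Vwf and Tmem252 held most of this sum, with 879 and 575 of 1812 UMIs in Diabetic 1 and 751 and 492 of 1705 in Diabetic 2. Of the kept Diabetic endothelial UMIs, inflamed cells held 10.1% and 23.4% for Ephb4 and 15.4% and 20.9% for Ctsc. For all genes together they held 10.3% and 16.5%. Aplnr had no UMI in the inflamed cells, and all kept Diabetic endothelial cells together held 1. Of the kept cells, 54 of 84 and 41 of 48 had at least 3 UMIs over at least 2 of Vwf, Slc38a5, Nr2f2 and Ctsc. Among the other endothelial cells above the minimum share, 119 of 1510 and 73 of 585 did. The threshold was a number of UMIs and inflamed cells were deeper, and the part of depth in these counts was not tested. The members with and without an Ackr1 UMI differed in the share that met this threshold. Among those with Ackr1, 38 of 45 and 28 of 31 met that venous threshold, and among those without it 16 of 39 and 13 of 17. Their median depths were 7454 and 8621 UMIs with Ackr1 and 5697 and 7115 without it. Nr2f2, a transcription factor of venous identity, stood at 193 and 223 CPM in members with Ackr1, but at 39.7 and 57.8 CPM in those without, near the 45.4 and 52.7 CPM of the other endothelial cells. Slc38a5, a glutamine transporter gene of retinal veins, had 256 and 426 CPM with Ackr1 and 130 and 70.6 CPM without it, both above the 36.5 and 42.6 CPM of the other endothelial cells. The venous markers were thus higher with Ackr1, and some of them were above the other cells without it too. The whole group is called inflamed endothelial cells below.

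Other genes followed the same division, given here with no test because Ackr1 is a rule gene. The other rule genes were also higher with Ackr1. Lcn2 had 2501 and 3600 CPM with Ackr1 and 548 and 366 CPM without it. Serpina3n had 410 and 283 CPM with it and 141 and 77.0 CPM without, and Lrg1 1216 and 1461 CPM against 992 and 841 CPM. The division therefore also separated members with more rule-gene RNA from those with less. Members with Ackr1 had 294 and 389 CPM of Ptgs2, the inducible enzyme of prostaglandin synthesis, and those without it 25.3 and 44.9 CPM. Cd14, a co-receptor for lipopolysaccharide, had 211 and 360 CPM with Ackr1, from 71 and 126 UMIs, and 7.21 and 6.42 CPM without it, from 2 and 1 UMIs. Fth1, the ferritin heavy chain that stores iron, had 13452 and 12217 CPM with Ackr1 and 6666 and 3570 CPM without. The difference was smaller for Vwf, which encodes von Willebrand factor, at 1769 and 1784 CPM with Ackr1 and 1024 and 815 CPM without. Cxcl12 and Mfsd2a ran the other way. The chemokine gene Cxcl12 had 723 and 949 CPM with Ackr1 and 2218 and 1669 CPM without it. Mfsd2a, a lipid transporter that restrains transcytosis at the barrier, had 41.6 and 42.9 CPM with Ackr1 and 90.2 and 135 CPM without. The arterial gene Alpl and the capillary gene Car4 were not lower with Ackr1. Alpl had 50.6 and 31.5 CPM with it and 25.3 and 12.8 CPM without. Car4, from 2 to 9 UMIs, had 8.92 and 25.7 CPM with it and 7.21 and 12.8 CPM without.

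**Figure D2:**
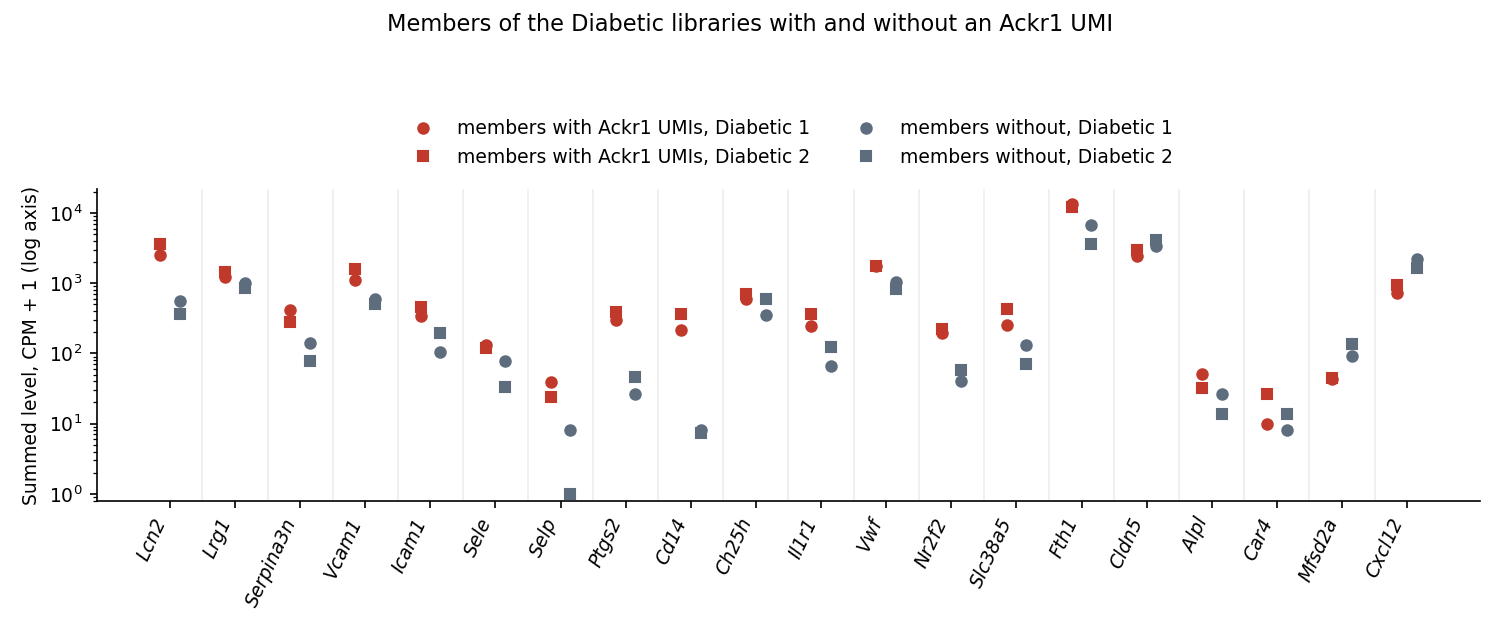
Summed level plus 1 (CPM, log axis) of named genes in kept inflamed cells with an Ackr1 UMI and in those without one, one point per Diabetic library. Ptgs2, Cd14 and Nr2f2 stand higher and Cxcl12 and Mfsd2a lower in the cells with Ackr1 in both libraries.

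The first comparison asked how inflamed cells differed from the other endothelial cells of the same 2 Diabetic libraries. Most tested genes of prostaglandin and oxysterol synthesis, the acute phase and venous identity were higher in inflamed cells, and most of arterial and capillary identity were lower. Of the leukocyte adhesion genes, 4 of 12 were higher. The lists and their members were chosen with earlier results of these data known, so their shares of called genes are a description. With all members, edgeR called 221 of 12198 tested genes higher (1.81%) and 327 lower (2.68%) at an adjusted p under 0.05. With the kept cells it called 576 of 10761 higher (5.35%) and 354 lower (3.29%), of which 187 and 227 were also called with all members. For 3 genes the sets gave calls in opposite directions. DESeq2 called 268 higher and 59 lower in the kept cells, all among edgeR's. The adjusted p-values rest on 1 residual degree of freedom and a spread pooled over genes. Log2 fold changes below are inflamed over other cells from the kept cells, with their SE and n = 2 libraries. Those of all members are added where they differ by over 1.5 times. Each SE from edgeR was the absolute log2 fold change divided by the square root of its F statistic. Like the p-values, the SE rests on the spread pooled over genes and is not a gene's own spread between libraries. Values with a library left out are from all members. They are differences of log2 CPM in the 1 library that remained, with a small count added, and are not fits. The gap from the fitted value therefore does not measure dependence on 1 library alone.

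Sele, Selp, Vcam1 and Icam1, which encode adhesion molecules that catch leukocytes, were higher. Sele, an endothelial selectin, had 106 and 93.0 CPM in inflamed cells, against 0.745 and 1.56 CPM in the other Diabetic endothelial cells and 0 in Control. Vcam1, the ligand of leukocyte integrin alpha 4, had 887 and 1241 CPM, against 79.9 and 60.9 CPM in the other Diabetic and 40.0 and 74.3 CPM in Control cells. Icam1, the ligand of the beta 2 integrins, had 235 and 378 CPM, against 39.5 and 66.0 CPM in the other Diabetic and 14.4 and 26.0 CPM in Control cells. For these 3 genes, inflamed cells were above the other cells in both libraries. The log2 fold changes were 6.64 ± 0.37 for Sele (edgeR adjusted p = 1.91e-10), 3.94 ± 0.15 for Vcam1 (6.12e-13) and 2.64 ± 0.13 for Icam1 (3.55e-11). Selp, the selectin kept in storage granules, had 24.4 and 15.8 CPM in inflamed cells and no UMI in the others, at least 54.3-fold higher when the others are set to 3 counts in all. It was called by edgeR but not by DESeq2. Of 12 tested adhesion genes, 4 were higher with all members and 5 with the kept cells, the fifth being Podxl, and none was lower in either. DESeq2 called 3 of them with the kept cells. The list's median was -0.06 with all members and 0.28 with the kept cells. With all members, Sele was at 6.21 in the fit of both libraries, but at 4.59 in Diabetic 2 alone and 5.99 in Diabetic 1 alone.

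The inflamed cells held most of the UMIs of several of these genes. Kept inflamed cells had 10.3% and 16.5% of the UMIs of kept Diabetic endothelial cells. They carried 94.2% and 92.2% of the Sele, 55.9% and 80.1% of the Vcam1 and 40.5% and 53.1% of the Icam1 UMIs. Of the Selp UMIs, 15 of 15 and 8 of 8 were in inflamed cells. By contrast, they carried 9.14% and 14.6% of the UMIs of Cldn5, a tight junction gene of the endothelial rule.

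Genes of lipid mediators were higher too. Ptgs2 had 173 and 283 CPM in inflamed cells, against 2.24 and 0.781 CPM in the other Diabetic and 2.64 and 2.79 CPM in Control cells, a log2 fold change of 6.95 ± 0.29 (edgeR adjusted p = 2.61e-12). Members held 89.8% and 98.6% of its UMIs. Ch25h, which makes 25-hydroxycholesterol, had 484 and 675 CPM, against 42.5 and 84.8 CPM in the other Diabetic and 3.40 and 5.57 CPM in Control cells (3.35 ± 0.12, edgeR adjusted p = 6.12e-13). Pla2g4a, which frees arachidonic acid, had 75.0 and 87.1 CPM against 13.4 and 17.2 CPM (2.51 ± 0.24), and Ptges, which makes prostaglandin E2, 19.6 and 31.7 CPM against 5.59 and 7.81 CPM (2.00 ± 0.41). The prostaglandin and oxysterol list had 5 of 7 tested genes higher with all members and 7 of 7 with the kept cells, of which DESeq2 called 3, and none lower. Its median of 2.51 with the kept cells compares with -0.04 over all genes tested. Among the 7, Ptgds rested on Diabetic 1. Kept inflamed cells held 41.8% of the Ptgds UMIs there and 10.7% in Diabetic 2, against 10.3% and 16.5% of all UMIs. Without Diabetic 2, Ptgs2 was at 5.74 with all members.

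Single receptor genes of innate immunity were also higher. Cd14 had 119 and 251 CPM, against 7.08 and 6.25 CPM in the other Diabetic and 3.02 and 0 CPM in Control cells, with a log2 fold change of 4.69 ± 0.25 (3.69 with all members). Il1r1, the receptor of interleukin 1, had 165 and 291 CPM against 20.7 and 18.4 CPM (3.52 ± 0.21). Gm38070, which lies within Il1r1 on the same strand, was higher too, and its reads cannot be told apart from those of Il1r1. The tumour necrosis factor family members Tnfsf8 and Tnfrsf9 had 75.0 and 85.1 CPM, and 89.6 and 152 CPM, against 1.30 and 0.391 CPM, and 5.22 and 12.1 CPM (6.32 ± 0.40 and 3.95 ± 0.25). In the list of lipopolysaccharide receptors, Cd14, Tlr4 and Lbp were higher of 7 tested, with all members and with the kept cells, where DESeq2 called 2, without Tlr4. In the NF-kB list, 5 of 16 were higher and 1 lower with all members, and 8 and 1 with the kept cells. These were led by Traf1 (2.01 ± 0.41), Nfkbiz (1.85 ± 0.21) and Bcl3 (1.58 ± 0.24), and the lower one was Cd40. DESeq2 called 4 higher and 0 lower with the kept cells, and neither Traf1 nor Cd40 was among them. Without Diabetic 2, Tnfsf8 was at 5.19 with all members, and Gm38070 at 3.69, and without Diabetic 1 Traf1 was at 0.93.

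In the acute-phase and STAT3 list, 13 of 19 genes were higher and 1 lower with all members, and 15 and 1 with the kept cells, with a median of 0.93. Cebpd, a transcription factor induced by cytokines, had 525 and 690 CPM, against 180 and 212 CPM in the other Diabetic and 63.1 and 75.2 CPM in Control cells (1.72 ± 0.10, edgeR adjusted p = 3.75e-10). Lbp, which hands lipopolysaccharide to Cd14, had 27.7 and 45.5 CPM against 0.931 and 0.781 CPM (5.28 ± 0.54; 4.58 ± 0.60 with all members). Socs3, the feedback inhibitor of STAT3, had 204 and 241 CPM in inflamed cells, 124 and 166 CPM in the other Diabetic and 31.3 and 53.8 CPM in Control cells. Its log2 fold change of 0.73 ± 0.12 was called with the kept cells (edgeR adjusted p = 0.000354) but not with all members (0.38 ± 0.18, edgeR adjusted p = 0.320). Serpina3g and Serpina3f, with 75.0 and 83.1 CPM, and 42.4 and 83.1 CPM, against 2.61 and 7.81 CPM, and 0.373 and 1.95 CPM, are close paralogs of the rule gene Serpina3n, and 3′ counts may not divide them correctly. Serpina3g was at 2.67 and Serpina3f at 4.24 with Diabetic 1 left out, and Lbp at 3.59, all with all members. The haptoglobin gene Hp was the lower one, at 3.26 and 0 CPM against 11.5 and 20.3 CPM, and at -1.70 in all members without Diabetic 2.

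Of the venous list, 7 of 11 genes were higher and 1 lower with all members, and 8 and 0 with the kept cells. Of the complement and coagulation list, 6 of 16 were higher with all members and 8 with the kept cells, none lower, and DESeq2 called 5 with the kept cells. Vwf had 1433 and 1486 CPM, against 195 and 214 CPM in the other Diabetic and 111 and 199 CPM in Control cells (2.93 ± 0.09, edgeR adjusted p = 2.69e-14). Mgp, the matrix Gla protein that binds bone morphogenetic proteins, had 5640 and 5854 CPM against 1550 and 1394 CPM (2.06 ± 0.08). Slc38a5 had 199 and 317 CPM against 36.5 and 42.6 CPM (2.75 ± 0.15). Nr2f2 had 124 and 172 CPM against 45.4 and 52.7 CPM (1.67 ± 0.17). Ephb4, a venous receptor of ephrins, did not differ beyond the spread, at 58.7 and 98.9 CPM against 60.0 and 64.1 CPM (0.40 ± 0.21, edgeR adjusted p = 0.317). The complement proteases C1s1 and C1ra were also higher (3.82 ± 0.45 and 3.93 ± 0.55), at 2.90 and 2.42 in all members without Diabetic 2. Some Slc38a5, Vwf and Nr2f2 UMIs also set the venous check above.

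Fth1 was higher, and Tfrc and Slc40a1 were lower. Fth1 had 10386 and 9552 CPM in inflamed cells, against 2105 and 1888 CPM in the other Diabetic and 1519 and 1276 CPM in Control cells (2.42 ± 0.07, edgeR adjusted p = 1.58e-14; 1.66 ± 0.31 with all members). The ferritin light chain gene Ftl1 had 649 and 609 CPM against 693 and 766 CPM and was not called. Tfrc, the receptor that brings transferrin iron into the cell, had 57.0 and 61.3 CPM against 217 and 225 CPM (-1.81 ± 0.16; -0.73 ± 0.19 with all members). Slc40a1, the exporter ferroportin, had 45.6 and 53.4 CPM against 111 and 116 CPM (-1.11 ± 0.19). Fth1 and Ftl1 were chosen after their values were seen, as were Mgp, Ptges, Fos, Ifitm3, Isg15, Efnb2 and Txnip, which the naming rule did not give.

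**Figure D3:**
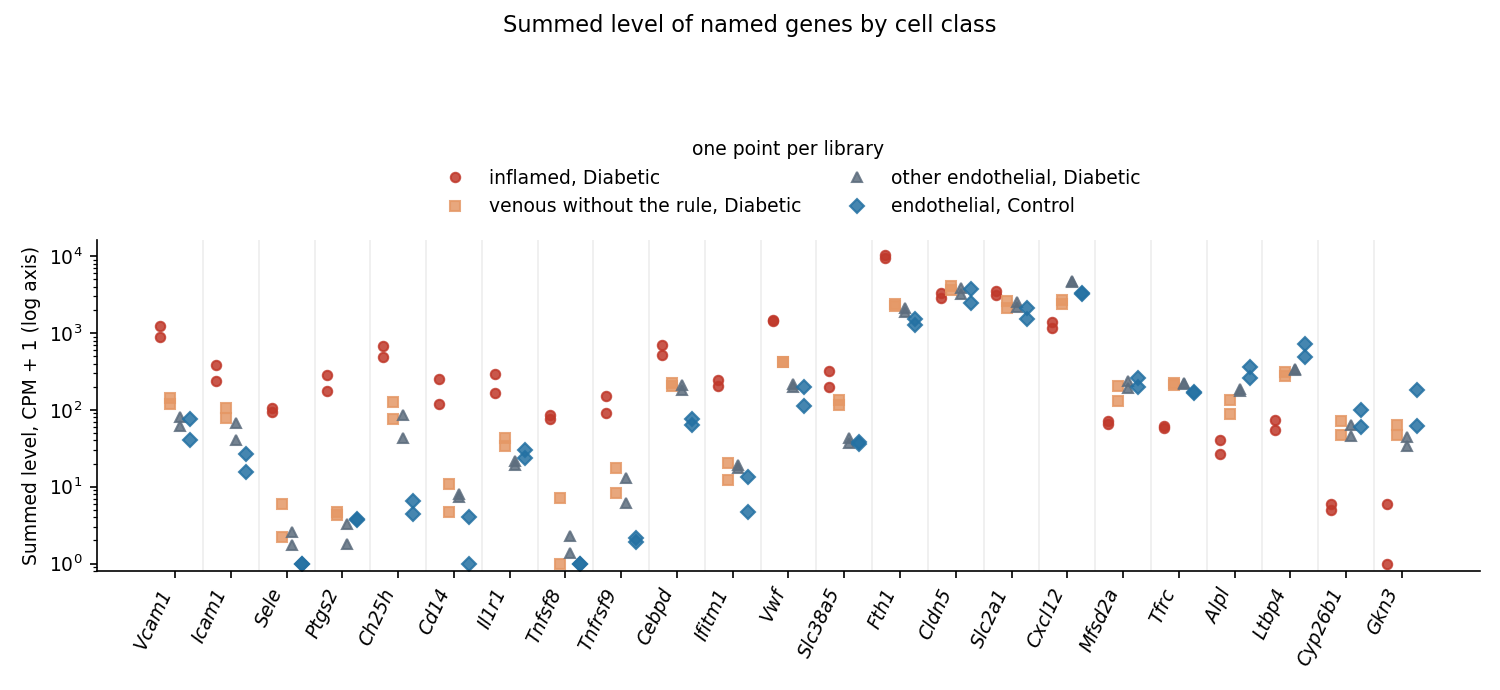
Summed level plus 1 (CPM, log axis) of named genes in kept inflamed cells, other Diabetic endothelial cells, Diabetic venous cells without the inflamed rule and Control endothelial cells, one point per library. Vcam1, Ptgs2, Vwf and Fth1 lie highest and Cxcl12, Mfsd2a, Tfrc and Gkn3 lowest in inflamed cells.

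Immediate early and antigen presentation genes had more calls with the kept cells than with all members. Of 20 immediate early genes, 5 were higher with all members and 14 with the kept cells, none lower. Ier3, an early survival gene, had 1066 and 1755 CPM against 443 and 428 CPM (1.74 ± 0.13), Atf3, a stress transcription factor, 326 and 408 CPM against 168 and 168 CPM (1.21 ± 0.11), and Fos 3040 and 3704 CPM against 2062 and 2163 CPM (0.76 ± 0.08). Fos was not called with all members. MHC class I had 1 of 13 higher with all members and 6 with the kept cells, among them H2-K1, at 1346 and 1339 CPM against 744 and 818 CPM (0.88 ± 0.08), and none lower.

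Interferon response genes went in both directions. Of 26 tested, 2 were higher and 13 lower with all members, and 4 and 10 with the kept cells, with a median of -0.65. DESeq2 called 4 higher and 2 lower with the kept cells. Ifitm1, a membrane protein that limits virus entry, had 241 and 206 CPM against 18.3 and 16.4 CPM (3.78 ± 0.17). Its relative Ifitm3 had 2621 and 2564 CPM against 1282 and 1397 CPM (1.05 ± 0.07), a call not made with all members. Ifit3, an interferon-induced RNA-binding partner protein, had 14.7 and 7.91 CPM against 46.6 and 75.0 CPM (-2.24 ± 0.35), and the ubiquitin-like protein gene Isg15 79.9 and 94.97 CPM against 191 and 166 CPM (-0.96 ± 0.16). Cmpk2, a nucleotide kinase induced by interferon, had 8.15 and 5.94 CPM against 29.4 and 39.5 CPM. Without Diabetic 2, Ifit3 was at -1.74 with all members.

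Arterial and capillary genes were lower. No arterial gene was higher with either set of cells, and 13 of 16 were lower with all members and 11 with the kept cells, with a median of -1.43. DESeq2 called 3 of the 16 lower with the kept cells, and Gkn3, Vegfc and Efnb2 were not among them. Gkn3, a marker of arterial endothelium, had 4.89 and 0 CPM in inflamed cells, against 33.2 and 43.0 CPM in the other Diabetic and 60.8 and 183 CPM in Control cells (-3.68 ± 0.57). Vegfc, a growth factor of lymphatic endothelium, had 6.52 and 3.96 CPM against 23.3 and 35.2 CPM (-2.30 ± 0.48), Efnb2, the ephrin of arteries, 29.3 and 21.8 CPM against 64.8 and 85.9 CPM (-1.42 ± 0.26), and Alpl, an alkaline phosphatase, 39.1 and 25.7 CPM against 186 and 175 CPM (-2.36 ± 0.19; -0.78 ± 0.19 with all members). Unc5b, a netrin receptor of sprouting vessels, had 16.3 and 13.8 CPM against 63.5 and 57.4 CPM (-1.90 ± 0.30). In these genes the inflamed cells were lower in both libraries. Of 11 capillary genes, 9 were lower with both sets of cells. Cxcl12 had 1398 and 1171 CPM against 4755 and 4568 CPM (-1.77 ± 0.07), Mfsd2a 63.6 and 71.2 CPM against 194 and 240 CPM (-1.58 ± 0.15), and the proteoglycan gene Spock2 910 and 896 CPM against 2249 and 2571 CPM (-1.32 ± 0.08). Without Diabetic 2, Gkn3 was at -2.69 and Vegfc at -1.84 with all members.

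Barrier genes were divided by kind. The median of the junction list was -0.14 with all members and -0.10 with the kept cells, against -0.0041 and -0.044 over all genes tested. Over all genes tested, 2.68% were lower with all members and 3.29% with the kept cells. Of 18 junction genes tested with all members 2 were lower, and of 17 with the kept cells 1, and none was higher. That gene, Ctnnb1, which encodes beta-catenin, had 370 and 419 CPM against 671 and 781 CPM (-0.78 ± 0.09). Ocln, the tight junction protein occludin, had 129 and 119 CPM against 160 and 197 CPM and was called with all members (-0.69 ± 0.19, edgeR adjusted p = 0.0101) but not with the kept cells (-0.41 ± 0.14, edgeR adjusted p = 0.0840). Cldn5 had 2877 and 3350 CPM against 3270 and 3878 CPM and is given with no test. Of 22 barrier transporters, 1 was higher and 10 lower with all members, and 4 and 11 with the kept cells. Slc7a1, a transporter of cationic amino acids, had 178 and 138 CPM against 439 and 525 CPM (-1.49 ± 0.13). The thyroid hormone transporter gene Slco1c1 had 424 and 299 CPM against 853 and 977 CPM (-1.23 ± 0.12). Slc2a1, the glucose transporter GLUT1, had 3123 and 3478 CPM against 2161 and 2518 CPM, higher with the kept cells (0.59 ± 0.07, edgeR adjusted p = 6.18e-06) and not called with all members (0.26 ± 0.25, edgeR adjusted p = 0.821). Plvap, which marks fenestrated endothelium such as that of the choroid, had 3.26 and 0 CPM against 6.33 and 0.391 CPM. Slco1c1 was at -1.07 without Diabetic 2 with all members.

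In the angiogenesis and Tie list, 5 of 16 genes were lower with all members and 4 with the kept cells, and none was higher. Kdr, the main VEGF receptor, had 253 and 239 CPM against 486 and 472 CPM (-0.87 ± 0.10), and its co-receptor Nrp1 97.8 and 67.3 CPM against 188 and 220 CPM (-1.18 ± 0.16; -1.01 in all members without Diabetic 2). Angpt2, the context-dependent antagonist of Tie2, had 17.9 and 21.8 CPM against 10.4 and 8.59 CPM and was not called. In the second comparison below, edgeR called Angpt2 higher with the kept cells. It was the 1 higher gene of 15 tested in its list there, and 4 were lower. In the sphingolipid list, 2 of 21 were higher and 1 lower with all members, and 3 of 19 and 1 with the kept cells. Ugcg, which makes glucosylceramide, had 75.0 and 137 CPM against 27.4 and 18.4 CPM (2.19 ± 0.27; 1.40 ± 0.22 with all members), the alkaline ceramidase gene Acer2 566 and 607 CPM against 232 and 298 CPM (1.26 ± 0.10), and the sphingosine phosphate phosphatase gene Sgpp2 16.3 and 21.8 CPM against 52.9 and 73.8 CPM (-1.63 ± 0.28). Txnip, which is induced by glucose, had 505 and 542 CPM against 334 and 390 CPM and was called with the kept cells only. Its list of glucose and fatty acid response genes had 3 of 15 higher and 0 lower with all members, and 6 and 2 with the kept cells.

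Of 14 heat shock genes, Hspa5, a chaperone of the endoplasmic reticulum, was the 1 called, higher with the kept cells. The chaperone gene Hsph1 had 8.15 and 5.94 CPM in inflamed cells, against 14.0 and 10.5 CPM in the other Diabetic and 69.1 and 77.1 CPM in Control cells. It was not called between inflamed and other Diabetic cells (-0.70 ± 0.51, edgeR adjusted p = 0.528; -0.04 ± 0.37 with all members, edgeR adjusted p = 0.989). Of 18 genes of Norrin and Wnt signalling, 5 were lower with all members and 3 with the kept cells, these being Notum, Foxq1 and Reck, and none was higher. Of 18 basement membrane genes, 1 was lower in each, Sparcl1, and 5 were higher with the kept cells, including the laminin gene Lamb1, the nidogen gene Nid1 and the fibronectin gene Fn1. Of the chemokine and cytokine list, 1 of 8 was higher and 3 lower with all members, and 3 and 2 with the kept cells. Csf1, a growth factor of macrophages, had 101 and 85.1 CPM against 22.9 and 14.5 CPM (2.38 ± 0.22). Cxcl1, which attracts neutrophils, rested mainly on Diabetic 2, at 6.52 and 43.5 CPM against 1.86 and 1.17 CPM (3.66 ± 0.66), and was below the count filter with all members.

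The remaining genes of the 12 highest and 12 lowest were Atp8b1, Cadm3, Ltbp4, Aif1l, Islr2, Nes and Ptn, and 4 genes of myeloid cells. Atp8b1, a phospholipid flippase, had 171 and 174 CPM against 21.4 and 23.8 CPM (3.03 ± 0.18). Cadm3, an adhesion molecule of neurons, overlaps Ackr1 by 493 bases on the same strand, so that its 83.1 and 111 CPM (4.25 ± 0.32; 2.65 ± 0.25 with all members) may hold Ackr1 reads. Ltbp4, which binds latent TGF-beta, had 53.8 and 73.2 CPM against 330 and 342 CPM (-2.33 ± 0.15). Nes, the intermediate filament nestin, had 31.0 and 31.7 CPM against 127 and 142 CPM (-2.003 ± 0.20), and Ptn, the growth factor pleiotrophin, 214 and 117 CPM against 641 and 607 CPM (-1.81 ± 0.14). Aif1l and Islr2 were lower by similar amounts (-2.20 ± 0.33 and -2.11 ± 0.21).  The rule applied to the kept cells added Clca3a1, Gm15987 and Serpina3f above, and Cyp26b1, Acta2, Lrrn3, Gkn3, Alpl and Cmpk2 below. Clca3a1 rested on Diabetic 1, with 78.2 and 23.7 CPM against 3.35 and 5.08 CPM, and was at 1.52 without it in all members. Gm15987 runs antisense to Clec2g. The retinoic acid hydroxylase gene Cyp26b1 had 4.89 and 3.96 CPM against 45.1 and 62.1 CPM (-3.45 ± 0.42). In all members without Diabetic 2, Ptn was at -1.65, Islr2 at -1.81, Cyp26b1 at -3.12 and Lrrn3 at -1.72. Without Diabetic 1, Gm15987 was at 2.38.

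Ctss, Tyrobp, Fcer1g and Lyz2, genes of microglia and macrophages, were among the 12 lowest. Ctss had 6.52 and 1.98 CPM in inflamed cells against 45.4 and 42.6 CPM, and Tyrobp 6.52 and 3.96 CPM against 47.9 and 46.9 CPM. In Control endothelial cells they stood at 6.04 and 0 CPM and 9.06 and 0.928 CPM. Taken over 8 microglia and macrophage markers, 5 and 6 of which had a UMI in inflamed cells, the summed level was 48.9 and 47.5 CPM in inflamed cells, against 228 and 240 CPM in the other Diabetic and 58.9 and 44.6 CPM in Control cells. The high class was the other Diabetic endothelial cells, while inflamed and Control cells overlapped. Without Diabetic 2, Ctss was at -2.78, Tyrobp at -2.56, Fcer1g at -1.69 and Lyz2 at -1.32 with all members. With all members, DESeq2 called 22 of the 24 genes of the 12 highest and 12 lowest, all but Fcer1g and Lyz2. After thinning to 1500 UMIs, which left 34 and 26 cells in the inflamed class, edgeR called 16 of the 23 that could be tested, in the same direction. The 7 not called were Ctss, Tyrobp, Fcer1g, Lyz2, Ifit3, Aif1l and Unc5b, and Tnfsf8 was not tested.

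The calls of the kept cells were also set against thinning and against DESeq2. Of 87 genes named in this comparison and called with the kept cells, edgeR called 37 in the same direction after thinning to 1500 UMIs. Only 34 and 26 cells met the inflamed rule after thinning, against 84 and 48 before it. The 34 tested but not called were Atp8b1, Csf1, Nfkbiz, Bcl3, Atf3, Acer2, Slc2a1, Socs3, Nid1, Hspa5, Podxl, Ptges, Fn1, Fos and Txnip among the higher genes. Among the lower genes they were Ctss, Tyrobp, Fcer1g, Lyz2, Ifit3, Aif1l, Unc5b, Gkn3, Ctnnb1, Slc40a1, Foxq1, Nrp1, Sgpp2, Cyp26b1, Lrrn3, Cmpk2, Reck, Isg15 and Efnb2. The 16 no longer tested were Tnfsf8, Selp, Serpina3f, Lbp, Hp, Cd40, Traf1, Tlr4, C1ra, Vegfc, Notum, Gm38070, Clca3a1, Acta2, Cxcl1 and Lamb1. DESeq2 called 64 of the 87. The 23 it did not call were Lyz2, Selp, Hp, Cd40, Traf1, Tlr4, Gkn3, Vegfc, Slc40a1, Notum, Foxq1, Sparcl1, Sgpp2, Socs3, Cmpk2, Reck, Lamb1, Nid1, Podxl, Ptges, Isg15, Efnb2 and Fn1. No gene had the opposite sign in either.

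**Figure D4:**
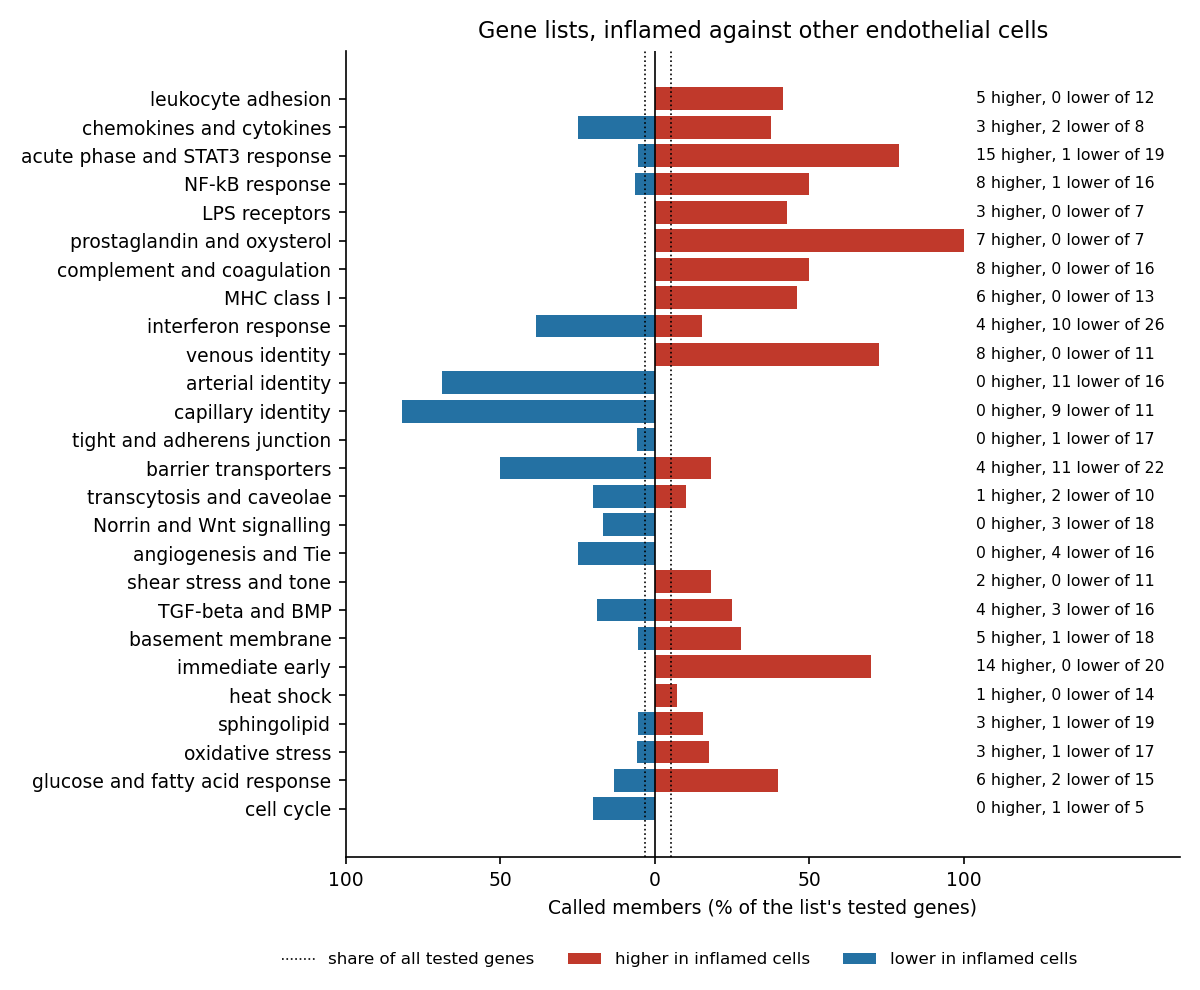
Members of each gene list called higher or lower in inflamed than in other Diabetic endothelial cells (percent of the list's tested genes, kept cells). Dotted lines mark the shares over all tested genes, 5.35% higher and 3.29% lower. The lists were chosen with earlier results of these data known. The prostaglandin and oxysterol, acute-phase, venous and immediate early lists reach farthest on the higher side and the capillary and arterial lists on the lower.

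Other cell types' markers were measured in the same sums. The summed level of 10 endothelial markers was 8992 and 9455 CPM in kept inflamed cells, against 11650 and 13088 CPM in the other Diabetic endothelial cells. Neutrophil markers, 4 and 3 of 8 detected, were at 34.2 and 11.9 CPM in inflamed cells, against 42.7 and 39.8 CPM in the others, with Camp, Ltf and Csf3r at 0 in the inflamed cells of both libraries. Müller glia markers, all 7 detected, were at 1084 and 849 CPM against 1335 and 1381 CPM, and the astrocyte list was at 79.9 and 27.7 CPM against 129 and 66.8 CPM, with Gfap and Pax2 at 0. Pericyte and smooth muscle markers were at 1255 and 1227 CPM against 2342 and 1976 CPM. Neutrophil, Müller glia, astrocyte and pericyte lists were lower in inflamed than in other cells of the same library. Haemoglobin ran the other way, at 7620 and 20893 CPM against 2816 and 7766 CPM, but 99.4% and 99.8% of it sat in the 3 richest cells of each library and the median cell had 0. Platelet markers were at 21.2 and 93.0 CPM against 16.8 and 36.3 CPM. Choroidal markers had 3.26 and 0 CPM, with Esm1, Kcnj5 and Rspo3 at 0. The part of haemoglobin and platelet RNA in the results was not tested.

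The second comparison set inflamed cells against venous cells of the same Diabetic libraries that failed the inflamed rule, to hold venous position closer. There were 205 of these cells, 192 of them kept, chosen by the threshold on Vwf, Slc38a5, Nr2f2 and Ctsc, which therefore carry no test here. This class was not purely venous, since the kept cells had 46.1 and 63.4 CPM of Gkn3 and 119 and 34.2 CPM of Acta2. The inflamed cells were not filtered by that threshold, and 54 of the 84 and 41 of the 48 kept ones met it. The comparison was therefore not one of venous with venous cells only. With all members edgeR called 1 of 10170 genes, Ptgs2, higher (0.00983%) and 0 lower, with 532 genes at an unadjusted p under 0.05. DESeq2 called 4 higher and 3 lower. With the kept cells edgeR called 348 of 7995 higher (4.35%) and 217 lower (2.71%). Of the 348 and 217, 319 and 161 were also called against all other endothelial cells, a comparison that shares the inflamed sums. Without the minimum share, the counts were 138 and 85 in cells with no Müller glia or astrocyte UMI and 48 and 31 after thinning. These settings held the same numbers of inflamed cells with the minimum share as without it, at 50 and 33, and 34 and 26. Their counts therefore do not cover the inflamed barcodes below that share. The counts were 26 and 26 in cells with no neutrophil UMI and 24 and 633 with Ackr1 alone as the rule. They were 12 and 4 with Lcn2 alone and 44 and 82 with no count filter. No gene was called with a lower or a higher number of rule-gene UMIs, RLE size factors, Scrublet doublets left out or no library block.

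With the kept cells, Vcam1, Ptgs2, Cd14, Ch25h and Fth1 were higher in inflamed than in these venous cells. Vcam1 had 887 and 1241 CPM in kept inflamed cells, against 142 and 119 CPM in venous cells without the rule (3.09 ± 0.14). Ptgs2 had 173 and 283 CPM against 3.64 and 3.25 CPM, and Cd14 119 and 251 CPM against 3.64 and 9.76 CPM (4.87 ± 0.34). In both genes the classes were far apart in each library. Ch25h had 484 and 675 CPM against 74.1 and 125 CPM (2.66 ± 0.14), and Fth1 10386 and 9552 CPM against 2394 and 2240 CPM (2.20 ± 0.07). Vwf, which chose the venous cells, had 1433 and 1486 CPM in inflamed cells and 421 and 421 CPM in venous cells. Nr2f2 overlapped, at 124 and 172 CPM against 155 and 137 CPM. The prostaglandin and oxysterol list had 4 of 6 tested genes higher with the kept cells, the acute-phase list 11 of 15 and 1 lower, the NF-kB list 6 of 15 and 1 lower, and the adhesion list 4 of 11. Ptgds, which rested on Diabetic 1 in the first comparison, was among the prostaglandin and oxysterol genes called. Cxcl12 was at 1398 and 1171 CPM in inflamed cells, against 2364 and 2715 CPM in venous cells (-0.89 ± 0.10), and Mfsd2a at 63.6 and 71.2 CPM against 129 and 202 CPM (-1.16 ± 0.21). The capillary list had 9 of 11 lower and the arterial list 8 of 15 lower. Socs3, at 204 and 241 CPM against 151 and 207 CPM, was not called (0.43 ± 0.15, edgeR adjusted p = 0.0617).

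Inflamed Diabetic cells were next set against Control endothelial cells, with the other Diabetic endothelial cells beside them. Both comparisons use the same Control sums. For inflamed cells, edgeR called 146 of 10575 genes higher (1.38%) and 69 lower (0.652%) with all members, and 265 of 9076 higher (2.92%) and 72 lower (0.793%) with the kept cells. Without Control 1 no gene was called with all members, and without Control 2 the counts were 644 and 364. For the other Diabetic cells, edgeR called 1 of 13285 genes higher (0.00753%), Lyz2, and 0 lower with all members, with 815 at an unadjusted p under 0.05, and DESeq2 called 62 higher and 13 lower. With the kept cells Fcer1g and Lyz2 were called higher, 2 of 11880 (0.0168%), and 0 lower, with 715 at an unadjusted p under 0.05. Leaving out any 1 library raised the counts with all members, to 259 higher and 260 lower without Control 1, 343 and 150 without Control 2, 134 and 14 without Diabetic 1, and 52 and 13 without Diabetic 2.

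In Ch25h, Cebpd and Socs3, both classes of Diabetic cells had levels above both Control libraries, with the inflamed cells above the other cells. Ch25h was at a log2 fold change of 7.21 ± 0.37 in inflamed cells (edgeR adjusted p = 0.000371) and 3.91 ± 0.54 in the other Diabetic cells (edgeR adjusted p = 0.179) over Control. Cebpd was at 3.24 ± 0.26 (0.000705 by edgeR) and 1.48 ± 0.20 (0.179), and Socs3 at 2.52 ± 0.32 (0.00505 by edgeR) and 1.78 ± 0.33 (0.346). Vcam1 was at 4.34 ± 0.38 in inflamed cells (edgeR adjusted p = 0.00113), but at 0.31 ± 0.34 in the others (0.904), whose 79.9 and 60.9 CPM overlapped the 40.0 and 74.3 CPM of Control. Vwf was likewise at 3.33 ± 0.32 in inflamed cells and 0.38 ± 0.31 in the others. Sele had no Control UMI and was at least 124-fold higher in inflamed cells when Control is set to 3 counts in all. Hsph1 was at -3.24 ± 0.37 in inflamed cells (edgeR adjusted p = 0.0033) and -2.57 ± 0.22 in the others (0.104). The difference between the 2 classes was tested within the Diabetic libraries, in the first comparison above.

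Across all kept Diabetic endothelial cells, Vcam1, Ch25h and Ptgs2 were highest where the rule genes had most UMIs. Below 4 UMIs, Vcam1 and Ptgs2 did not climb at every step. The cells were binned by 0, 1, 2 to 3, 4 to 9, and 10 or more UMIs of the 4 rule genes, with 1290, 135, 67, 51 and 51 cells in Diabetic 1 and 485, 50, 34, 27 and 37 in Diabetic 2. Vcam1 was at 61.0, 165, 142, 358 and 1051 CPM over these bins in Diabetic 1 and at 64.4, 14.6, 79.6, 196 and 1378 CPM in Diabetic 2. Ch25h was at 26.3, 59.3, 137, 298 and 538 CPM in Diabetic 1 and at 42.6, 62.0, 277, 330 and 758 CPM in Diabetic 2, climbing at every step. Ptgs2 was at 2.14, 4.94, 0, 43.5 and 219 CPM in Diabetic 1 and at 0.520, 0, 4.19, 103 and 283 CPM in Diabetic 2, with its UMIs almost all at 4 or more. Mfsd2a was at 209, 163, 133, 56.9 and 61.1 CPM in Diabetic 1 and at 259, 223, 176, 113 and 62.2 CPM in Diabetic 2. The upper 2 bins held 18 and 16 cells that failed the rule because their UMIs were of 1 gene. Median depth differed between bins, at 2546.5 UMIs for 0 and 7696 for 10 or more in Diabetic 1, and its part in these levels was not tested.

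**Figure D5:**
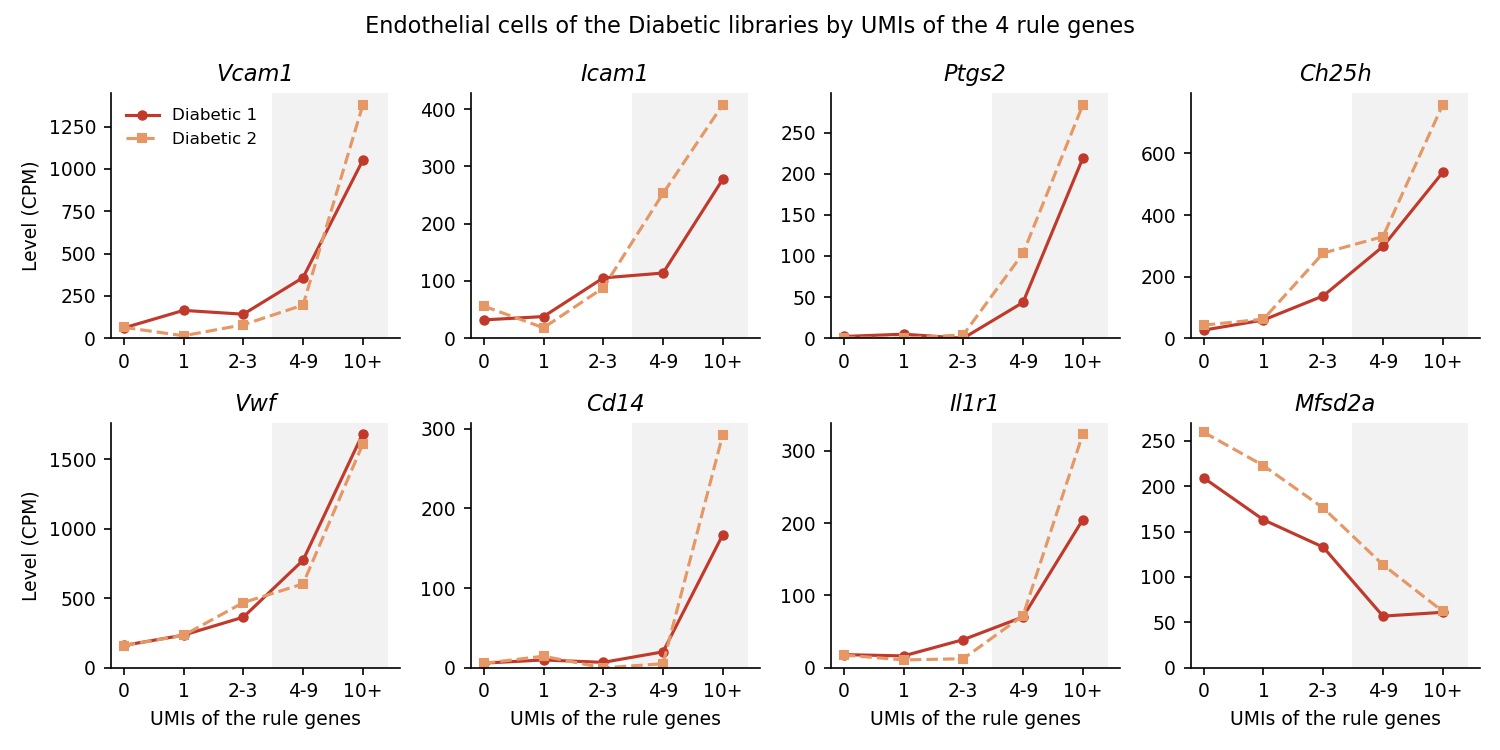
Level (CPM) of named genes in kept Diabetic endothelial cells binned by their UMIs of the 4 rule genes (horizontal axis), one line per library. The shaded bins hold 4 or more UMIs. Vcam1, Ptgs2 and Ch25h lie highest at 10 or more UMIs in both libraries, and Mfsd2a lies lowest at 4 or more.

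For reference on GRCm38, Vcam1 (ENSMUSG00000027962) spans positions 116109949 to 116129688 of chromosome 3 on the minus strand, Ch25h (ENSMUSG00000050370) 34473778 to 34475164 of chromosome 19 on the minus strand and Fth1 (ENSMUSG00000024661) 9980598 to 9985098 of chromosome 19 on the plus strand. Vwf (ENSMUSG00000001930) spans 125546774 to 125686679 of chromosome 6 and Icam1 (ENSMUSG00000037405) 21015985 to 21028817 of chromosome 9, both on the plus strand. All are protein-coding genes, and 3′ counts do not separate their exons.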

How the data were processed

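The deposited values were raw UMI counts per gene and barcode, made by the authors with Cell Ranger 7.0.0, per the file headers. The submitters' processing notes name Cell Ranger 7.0.0, STAR 2.7.10b and mm10. The 4 libraries held 29792902 to 58792636 UMIs over 55357 genes.

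Quality filters asked for at least 500 UMIs, at least 300 genes and a mitochondrial share of at most 20%. Classes came from the UMI rules in the report. Doublets were marked with Scrublet (scanpy 1.11.5) and kept, except in a named alternative. Its automatic threshold was used in Control 1 only. Elsewhere that threshold called under 0.5% of barcodes, and the expected doublet rate set the calls, at 1.97% to 6.31%. Counts were summed per library and class and tested with edgeR 4.0.16 (TMM, quasi-likelihood F test, Benjamini-Hochberg, threshold 0.05). The comparison of inflamed with other cells, and that with venous cells, kept the library as a block, since both classes came from the same libraries. DESeq2 1.42.0 was the alternative tool. Data were simulated from the sums of the kept cells, with 1 fixed spread and no difference between libraries. Only genes with higher counts were changed. Recovery therefore does not describe genes with few UMIs. For inflamed against other cells, 54.6% of genes changed 2-fold and 93.5% of those changed 4-fold were recovered, with 11 false calls over 10420 genes. For inflamed against venous cells, 38.2% and 91.2% were recovered, with 1 false call. The fitted biological coefficient of variation of that comparison was 10.7% with the kept cells and 32.7% with all members. Recovery with all members was not simulated.

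Named genes were the 12 highest and 12 lowest log2 fold changes among called genes with at least 20 CPM and no overlap between classes, up to 4 called genes per list, and a short list given by name. Members, lists and genes were chosen with earlier results of these data known. Paralogs and overlapping genes are uncertain, as are other genes sharing reads. Some genes are not reported here.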

Additional observations from a re-analysis of the deposited data

Results flagged for a closer look

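Barcodes that met the inflamed rule but not the endothelial rule stood above the Control level in both Diabetic libraries, and no comparison used them. They were 182 of 6188 barcodes outside the endothelial class in Diabetic 1 (2.94%, exact 95% binomial interval 2.53% to 3.39%) and 116 of 2843 in Diabetic 2 (4.08%, 3.38% to 4.87%). In Control 1 they were 20 of 5125 (0.390%) and in Control 2 14 of 2172 (0.645%). At least 4 UMIs of the endothelial genes were present in 129 and 93 of the Diabetic barcodes and in 13 and 8 of the Control ones. The pericyte limit was passed by 92 and 60 Diabetic and by 5 and 4 Control barcodes, and the Rlbp1 limit by 69 and 67 Diabetic and by 16 and 9 Control barcodes. At least 10 UMIs of neutrophil markers were in 22 and 3 Diabetic and in 1 and 0 Control barcodes. Their median depth was 13718.5 and 32519 UMIs in Diabetic and 54130 and 63768 UMIs in Control, and the part of depth in these shares was not tested.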

How the results depend on the processing

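Counts below give genes higher before genes lower. For inflamed against other Diabetic endothelial cells (221 and 327 with all members), a rule of 2 UMIs gave 1158 and 1462, 8 UMIs 9 lower, Ackr1 alone 2030 and 2454, Lcn2 alone 140 and 69, DESeq2 80 and 59, no Müller glia or astrocyte UMI 378 higher, thinning to 1500 UMIs 89 and 56, and leaving out Scrublet doublets 137 and 169. The kept cells gave 576 higher, and within them 59 lower with DESeq2, 728 higher without doublets, 365 without Müller glia or astrocyte UMIs, 641 without neutrophil UMIs, and 83 and 41 after thinning. For inflamed against venous cells (1 and 0), the counts were 348 and 217 with the kept cells, 24 and 633 with Ackr1 alone, 12 and 4 with Lcn2 alone, 4 and 3 with DESeq2, 138 and 85 without Müller glia or astrocyte UMIs, 48 and 31 after thinning, 26 and 26 without neutrophil UMIs and 44 and 82 with no count filter. They were 0 higher at 2 UMIs, at 8 UMIs, with RLE factors, without doublets and with no replicate block. For inflamed against Control cells (146 and 69), 2 UMIs gave 300 lower, 8 UMIs 251 and 18, Ackr1 alone 877 and 1218, Lcn2 alone 45 lower, DESeq2 120 lower, the kept cells 265 higher, no Müller glia or astrocyte UMI 277 and 181, no neutrophil UMI 308 higher, no doublets 44 lower, and no count filter 387 and 420. For other Diabetic against Control cells (1 and 0), Ackr1 alone gave 4 and 1, DESeq2 62 and 13, Lcn2 alone and no neutrophil UMI 0 higher, the kept cells 2 higher, no Müller glia or astrocyte UMI 54 and 67, no count filter 236 and 80, and thinning 38 and 10. Leaving out 1 library at a time gave 0 to 644 higher and 0 to 364 lower for inflamed against Control, and 52 to 343 higher and 13 to 260 lower for other Diabetic against Control, where a lone library is assumed to vary like the other group. The causes were not tested.

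Samples with the same number deviated together from their group means (correlation 0.707 over 6228 genes in kept cells, 0.677 over 6742 with all), but the labels give no pairing, so they share only a number. A replicate block gave 205 and 143 calls for inflamed and 280 and 176 for other Diabetic against Control. Dropping the library block gave 164 and 234 for inflamed against other Diabetic cells.

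Some log2 fold changes of inflamed against other Diabetic cells changed direction. At 2 UMIs these were Socs3 (-0.13), Ephb4 (-0.31), Slc2a1 (-0.13), Fos (-0.0050) and Txnip (-0.14), and at 8 UMIs Ftl1 (0.24) and Ocln (0.16). With Ackr1 alone they were Socs3 (-0.84), Ephb4 (-0.97), Atf3 (-0.47), Acer2 (-0.41), H2-K1 (-0.63), Slc2a1 (-0.99), Angpt2 (-0.15), Hsph1 (0.46), Fos (-0.81), Ifitm3 (-0.30) and Txnip (-1.05), and with Lcn2 alone Lyz2 (0.057) and Hp (0.60). Angpt2 was at -0.49 in kept cells without Müller glia or astrocyte UMIs and at -0.36 in all such cells, and Ephb4 at -0.0067 with no count filter. Hsph1 was at 0.038 without neutrophil UMIs and 0.12 without doublets. With 1 library at a time left out, values were differences of log2 CPM in the other library. Slc2a1 was at -0.017 to 0.45, Hsph1 at -0.71 to 0.49, Txnip at -0.038 to 0.52 and Ephb4 at -0.12 to 0.14. Of the 12 highest and 12 lowest genes with all members, all 24 were called in the same direction with the kept cells, with RLE factors and without doublets, and 16 at 8 UMIs (not Fcer1g, Ifit3, Aif1l, Islr2, Lyz2, Ptn, Unc5b and Cxcl12), 21 with Lcn2 alone (not Tyrobp, Fcer1g and Lyz2), 22 with DESeq2 and 16 after thinning. Of the 24 chosen in the kept cells, 16 were called at 8 UMIs, 22 with Lcn2 alone, 22 with DESeq2 and, of 19 tested, 11 after thinning.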
